A study of Mus musculus with 16 samples.

Results

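The genes described here build the acetylcholine receptor of the muscle endplate and the machinery that gathers it under the nerve. They were Chrna1, Chrnb1, Chrnd, Chrng and Chrne, the receptor subunits, Musk, Lrp4, Dok7 and Rapsn, the clustering pathway, and Ache, the enzyme that breaks acetylcholine down. All 10 were picked by symbol from a table of 31053 genes, with earlier results of these data known. Genes were tested when 4 or more of the 16 samples reached a normalized count of 10, a filter that 8 of the 10 and 10767 genes in all passed. Chrne and Ache fell below it and are described by their reads.

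The samples were bulk RNA from C2C12, a mouse myoblast line, labelled as biological replicates. Myoblasts and myotubes of a WT and of a Fam134b KO line gave 4 groups of 4 samples. Fam134b encodes a receptor that delivers portions of the endoplasmic reticulum to autophagy, and the study asked what its loss does to muscle cell differentiation. Both lines were kept in DMEM with fetal bovine serum, and the myotubes formed without a change to low serum medium, once the cells were confluent. The KO cells were made with lentiviral CRISPR–Cas9 and antibiotic selection, and the methods name neither a cloning step nor a vector control for WT. With 1 KO line, the edited gene and other differences between the lines cannot be told apart. No nerve and no added agrin is named for the sequenced cultures. The labels do not say how the replicates were grown apart, so the p-values measure the spread between these samples.

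The muscle receptor is a pentamer of 2 Chrna1 subunits with 1 each of Chrnb1 and Chrnd and a variable subunit. The variable place is held by the fetal subunit, encoded by Chrng, before and shortly after innervation, and by the adult subunit, encoded by Chrne, afterwards. Agrin released by the nerve binds Lrp4, which switches on the receptor tyrosine kinase MuSK. Dok7 binds and activates MuSK from inside the cell, and rapsyn, the product of Rapsn, ties receptors together beneath the membrane. In muscle, the receptor subunit genes are classic targets of the myogenic basic helix-loop-helix factors, such as MyoD and myogenin, which bind E-boxes with the letters CANNTG.

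The alpha, fetal and adult subunits were chosen for a look at sequence after their values were seen. The alpha and fetal genes moved with Myog and Myod1, which encode myogenin and MyoD, and the adult gene was barely read. The motif counts are therefore no test of control by these factors. The stretches directly before the start sites of these 3 genes are shown. They come from RefSeq, build GRCm38.p6, run 5′ to 3′ on the strand of the gene, overlap no annotated exon, and have every CANNTG in capitals. The Chrna1 stretch is chr2:73580339-73580588 on the minus strand, the Chrng stretch is chr1:87205561-87205809 on the plus strand, and the Chrne stretch is chr11:70619217-70619444 on the minus strand. The Chrng stretch lies in an intron of a GENCODE transcript of the same gene that starts further upstream.
Chrna1: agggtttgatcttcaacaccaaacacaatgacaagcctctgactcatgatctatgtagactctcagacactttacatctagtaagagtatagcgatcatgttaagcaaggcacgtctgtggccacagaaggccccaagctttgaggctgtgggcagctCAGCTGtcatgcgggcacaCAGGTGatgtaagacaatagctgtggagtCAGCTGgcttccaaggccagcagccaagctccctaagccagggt
Chrng: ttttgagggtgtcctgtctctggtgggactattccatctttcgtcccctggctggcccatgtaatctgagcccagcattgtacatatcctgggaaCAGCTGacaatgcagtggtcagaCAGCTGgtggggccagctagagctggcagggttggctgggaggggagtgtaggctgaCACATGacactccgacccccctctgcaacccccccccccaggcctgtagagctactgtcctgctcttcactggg
Chrne: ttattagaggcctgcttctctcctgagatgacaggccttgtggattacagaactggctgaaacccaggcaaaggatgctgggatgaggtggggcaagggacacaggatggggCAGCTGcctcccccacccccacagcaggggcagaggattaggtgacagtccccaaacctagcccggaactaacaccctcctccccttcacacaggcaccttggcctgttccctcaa
Chrna1 and Chrng each held 3 matches, of which 2 were CAGCTG, and Chrne held 1, a CAGCTG. Among 32851 RefSeq promoters of 300 bases (250 before and 50 after the start), 17.6% held at least 3 CANNTG and 1.90% at least 2 CAGCTG. Both motifs read the same on either strand, and CAGCTG is a subset of CANNTG. In promoters of that length Chrnb1 and Musk also held 3 CANNTG, while Ache held 1 and the 2 start sites of Dok7 held 1 and 0. The letters CCGGAA, a core bound by Ets factors such as GABP, were found on either strand in the Chrne promoter alone of the 7 genes matched (all but Chrnd, Rapsn and Lrp4), and in 14.9% of all promoters. Such matches describe letters and not bound sites.

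Chrnd (chr1:87190607-87200070) and Chrng (chr1:87204657-87212694) lie on the same strand of chromosome 1 with 4586 bases between them in GRCm38. Chrna1 is at chr2:73563215-73580338, Chrnb1 at chr11:69784036-69795943 and Chrne at chr11:70614883-70619216. Musk is at chr4:58285960-58374303, Lrp4 at chr2:91457511-91513779, Rapsn at chr2:91035620-91045729, Dok7 at chr5:35056766-35087839 and Ache at chr5:137287519-137294466. Exons of Rapsn and Ache overlap those of the opposite-strand genes Gm13778 and Gm42456, and a strand setting for the counting is not given in the sources used here.

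The libraries held 1484750 to 3287461 reads on genes, and the 2 shallowest libraries were KO myotubes replicates 2 and 4. The knocked-out gene, Fam134b, was read at 207 ± 42.0 normalized counts (SD, n = 4) in WT myoblasts and 27.5 ± 5.49 in KO myoblasts, and at 232 ± 61.6 and 41.8 ± 14.0 in the myotubes. The labels of stage were checked on 9 myotube markers, all of which rose on differentiation in both lines. Of all tested genes 13.8% were called higher in WT and 17.3% in KO. In WT samples their summed level was 1731 to 2540 before and 26633 to 40314 after differentiation, and in KO samples it was 16.7 to 23.2 before and 11526 to 15760 after. Among 6 myoblast markers the sum was 1002 to 1487 before and 2699 to 3232 after in WT, and 262 to 366 before and 893 to 1192 after in KO. Pax7, a satellite cell factor, had 0 reads in both KO groups. In bulk RNA, fewer cells of a type and less RNA per cell cannot be told apart.

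On differentiation of WT cells 6 of the 8 tested genes rose, namely 4 receptor subunits, Dok7 and Lrp4 (13.8% of all tested genes were called higher). In the KO line 7 of 8 rose, the same 6 and Rapsn (17.3% of all). In KO myoblasts 7 of 8 were lower than in WT myoblasts, with Lrp4 the exception (8.50% of all). In KO myotubes 6 of 8 were lower than in WT myotubes, all but Dok7 and Lrp4 (13.7% of all). The median log2 fold change of the 8 was 1.49, 3.21, -2.73 and -1.06 in these comparisons, against -0.01, -0.02, -0.01 and -0.07 over all tested genes. The medians were the same with genes of at most 3 reads in a group set at the bound those reads allow. Adjusted p here and throughout is from limma over all 10767 genes with Benjamini-Hochberg adjustment, and a gene was called at an adjusted p under 0.05. No p was adjusted over the 10 genes alone.

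**Figure D1:**
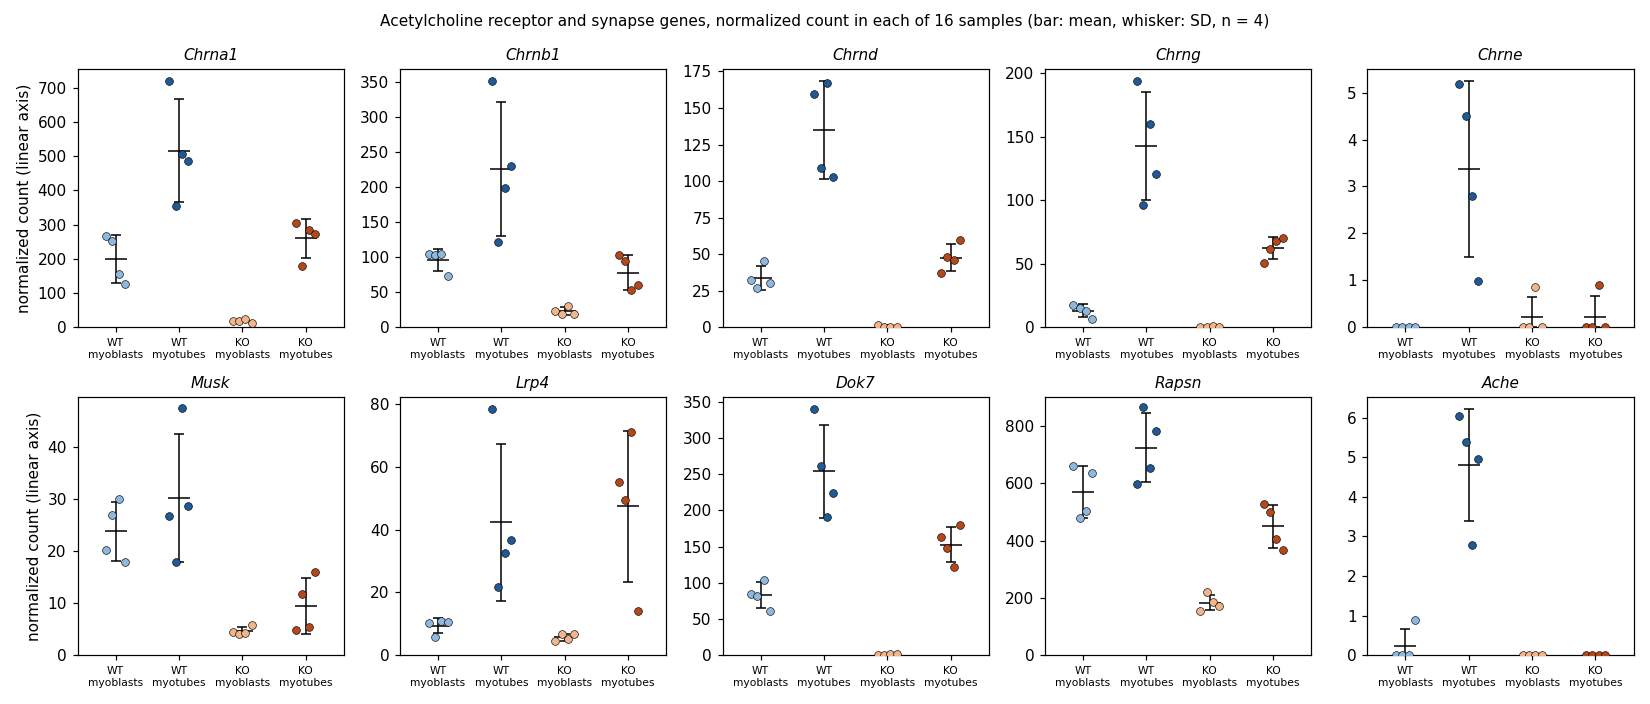
Normalized count (linear axis from 0, a separate scale in each panel) of the 10 genes in each of the 16 samples, with the group mean as a bar and the SD as a whisker (n = 4). KO myoblasts sit at or near 0 for Chrnd, Chrng and Dok7, and Chrne and Ache leave the floor in WT myotubes.

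Chrna1 encodes the subunit that carries the main face of the acetylcholine binding sites. Its normalized counts in replicates 1 to 4 were 266, 251, 156 and 126 in WT myoblasts and 719, 354, 506 and 486 in WT myotubes. In the KO line they were 17.5, 18.3, 23.4 and 13.3 in myoblasts and 305, 178, 285 and 272 in myotubes. Every KO myoblast sample lay below every WT myoblast sample, while KO myotubes overlapped WT myoblasts. The level rose 2.62-fold in WT (log2 1.39, SE 0.26, adjusted p = 5.25e-04) and 13.6-fold in KO (log2 3.77, SE 0.26, adjusted p = 2.91e-10). It was 10.2-fold lower in KO than in WT myoblasts (adjusted p = 2.36e-09) and 1.96-fold lower in KO myotubes (adjusted p = 0.00897). Without the 2 shallowest libraries, an alternative chosen after seeing the data, the difference in myotubes was -0.76 on the log2 scale with adjusted p = 0.0740.

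Chrnb1, the beta subunit, had 104, 103, 105 and 73.1 normalized counts in WT myoblasts and 351, 121, 198 and 230 in WT myotubes. KO myoblasts had 23.6, 18.3, 30.4 and 19.2, and KO myotubes 103, 94.8, 53.1 and 59.9. The highest KO myotube sample did not reach the lowest of WT myotubes. Chrnb1 rose 2.19-fold in WT (adjusted p = 0.00666) and 3.23-fold in KO (adjusted p = 1.00e-04), the smallest rises among the receptor subunits tested. It was 4.12-fold lower in KO myoblasts (adjusted p = 1.61e-05) and 2.79-fold lower in KO myotubes (log2 -1.48, SE 0.28, adjusted p = 6.90e-04).

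Chrnd encodes the delta subunit. WT myoblasts had 32.3, 27.0, 45.0 and 30.3 normalized counts, and WT myotubes 160, 109, 167 and 103. Of the KO myoblasts, 1 library held 2 reads and 3 held 0, whereas KO myotubes had 36.8, 48.2, 45.9 and 59.9 normalized counts. The pooled reads were 78.6-fold lower in KO than in WT myoblasts, with an exact counting interval of 21.4 to 656, and the fit called the difference (adjusted p = 7.12e-10). In KO myotubes the level was 2.76-fold below WT myotubes (log2 -1.47, SE 0.34, adjusted p = 0.00317). Pooled reads rose 4.05-fold in WT (interval 3.36 to 4.90) and 107-fold in KO (interval 29.2 to 894). These intervals, at 95%, and all limits from reads cover counting error only.

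Chrng, the fetal subunit, made the largest rise of the 8 tested genes in WT. Its normalized counts were 17.5, 15.4, 13.0 and 6.24 in WT myoblasts and 193, 96.3, 160 and 121 in WT myotubes, a 10.5-fold rise (log2 3.39, SE 0.34, adjusted p = 3.22e-07). A single read was counted in all 4 KO myoblast libraries together, against 55 in WT myoblasts. KO myotubes had 50.3, 61.3, 67.5 and 69.9 normalized counts, so each lay above every myoblast sample and below every WT myotube sample. The pooled reads were 60.9-fold lower in KO than in WT myoblasts (interval 10.5 to 2450), a difference called in the fit (adjusted p = 1.23e-07). The myotube difference was 2.21-fold (log2 -1.14, SE 0.34, adjusted p = 0.0196). That call was lost without WT myotubes replicate 1 (adjusted p = 0.0669), WT myotubes replicate 3 (0.0640) or KO myotubes replicate 1 (0.0501), and the log2 difference stayed between -1.31 and -0.98 with each library left out.

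Chrne, the adult subunit, was hardly read. WT myotubes had 6, 5, 3 and 1 reads, WT myoblasts 0 in all 4 libraries, and each KO group 1 read in all. Every WT myotube library therefore held a read, against 1 library in each KO group. Against a floor of 3 reads over the group, Chrne was at least 4.87-fold higher in WT myotubes than in WT myoblasts. KO myotubes were 11.5-fold below WT myotubes by pooled reads, with an interval of 1.76 to 483. In a fit without the filter, over 17641 genes, the WT rise (adjusted p = 4.39e-04) and the lower level in KO myotubes (adjusted p = 0.00124) were called. The fetal subunit outnumbered the adult one in every WT myotube library. Chrne made 15 of the 640 reads of both genes in WT myotubes, 2.34% with an exact (Clopper-Pearson) interval of 1.32 to 3.84%. In KO myotubes it made 1 of 205, 0.488% with an interval of 0.0123 to 2.69%, and the intervals of the shares overlapped. In WT myoblasts it made 0 of 55, where the exact interval reaches 6.49% and the floor of 3 reads is 5.45%. These shares are of reads and were not divided by transcript length.

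The other nicotinic subunits, those of neurons, were at the floor. Of 11 such genes 8 had 0 reads in all 16 libraries and no gene passed 3 reads in any library, with 16 reads in all. Chrna1 was the only alpha subunit gene among those looked at with more than 3 reads in any library.

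Musk encodes the kinase at the centre of receptor clustering. Its change on differentiation was called in neither line. It had 20.3, 27.0, 30.0 and 17.8 normalized counts in WT myoblasts and 26.8, 18.0, 47.4 and 28.7 in WT myotubes, groups that overlapped. KO myoblasts had 4.37, 4.15, 4.34 and 5.84, and KO myotubes 4.84, 11.7, 5.40 and 15.99. The change on differentiation was 0.28 in WT (95% interval -0.52 to 1.08, adjusted p = 0.643) and 0.75 in KO (-0.05 to 1.55, adjusted p = 0.140) on the log2 scale. At either stage the highest KO sample was under the lowest of all 8 WT samples. The gene was 4.31-fold lower in KO myoblasts (log2 -2.11, SE 0.38, adjusted p = 4.04e-04) and 3.12-fold lower in KO myotubes (log2 -1.64, SE 0.38, adjusted p = 0.00377). KO libraries held 5 to 8 reads of Musk each.

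Lrp4, the agrin receptor, was called between the lines at neither stage. WT myoblasts had 10.1, 5.79, 11.0 and 10.7 normalized counts and KO myoblasts 4.37, 6.64, 5.21 and 6.67, overlapping by 1 WT sample. WT myotubes had 78.6, 21.6, 32.5 and 36.7 and KO myotubes 55.2, 49.6, 71.1 and 14.0. Both lines rose, by 1.93 in WT (SE 0.44, adjusted p = 0.00313) and 2.65 in KO (SE 0.44, adjusted p = 8.61e-05) on the log2 scale. The difference between the lines was -0.61 in myoblasts (95% interval -1.52 to 0.30, adjusted p = 0.406) and 0.11 in myotubes (-0.80 to 1.02, adjusted p = 0.887).

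Dok7, the cytoplasmic activator of MuSK, was nearly unread in KO myoblasts and came back on differentiation. WT myoblasts had 84.9, 82.0, 104 and 60.6 normalized counts, and KO myoblasts 1, 0, 2 and 2 reads. WT myotubes had 339, 262, 191 and 224, and KO myotubes 163, 147, 121 and 180, below the lowest WT myotube sample. By pooled reads KO myoblasts were 77.3-fold below WT myoblasts (interval 32.8 to 240), called with adjusted p = 8.24e-12. Pooled reads rose 3.11-fold in WT (interval 2.76 to 3.52) and 139-fold in KO (interval 59.3 to 431). The KO myotube difference of -0.71 on the log2 scale (SE 0.29, 95% interval -1.32 to -0.10) was not called (adjusted p = 0.0844). Calls of that difference appeared with limma voom on the recovered reads (adjusted p = 0.0113), a pseudocount of 5 (0.0220), quantile normalization (0.0402), a fit to the samples compared alone (0.0443) and without KO myoblasts replicate 2 (0.0299).

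Rapsn, which encodes the scaffold that binds the receptor, moved least on differentiation of WT cells after Musk. WT myoblasts had 661, 479, 503 and 635 normalized counts and WT myotubes 598, 865, 652 and 783, overlapping groups with a log2 difference of 0.35 (95% interval -0.01 to 0.70, adjusted p = 0.156). KO myoblasts had 155, 219, 187 and 174 and KO myotubes 527, 500, 406 and 366. The KO rise was 2.43-fold (log2 1.28, SE 0.17, adjusted p = 7.36e-06). Rapsn was 3.08-fold lower in KO myoblasts (adjusted p = 3.78e-07) and 1.61-fold lower in KO myotubes (adjusted p = 0.00611). In neither stage did the WT and KO samples overlap.

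Ache encodes acetylcholinesterase, which ends transmission in the synaptic cleft. It had 7, 6, 3 and 5 reads in WT myotubes, 1 read in all WT myoblast libraries, and 0 in all 8 KO libraries. WT myotubes were thus 20.5-fold above WT myoblasts by pooled reads (interval 3.29 to 846). KO myotubes were at least 5.35-fold below WT myotubes, against a floor of 3 reads over the group. In the fit without the filter the WT rise (adjusted p = 1.06e-05) and the KO myotube difference (adjusted p = 4.51e-06) were called. Of its anchors, Colq, the collagen tail of the synaptic enzyme, had 12 reads in WT myotubes and 2 in KO myotubes, and Prima1, the membrane anchor, had 0 reads in every library.

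**Figure D2:**
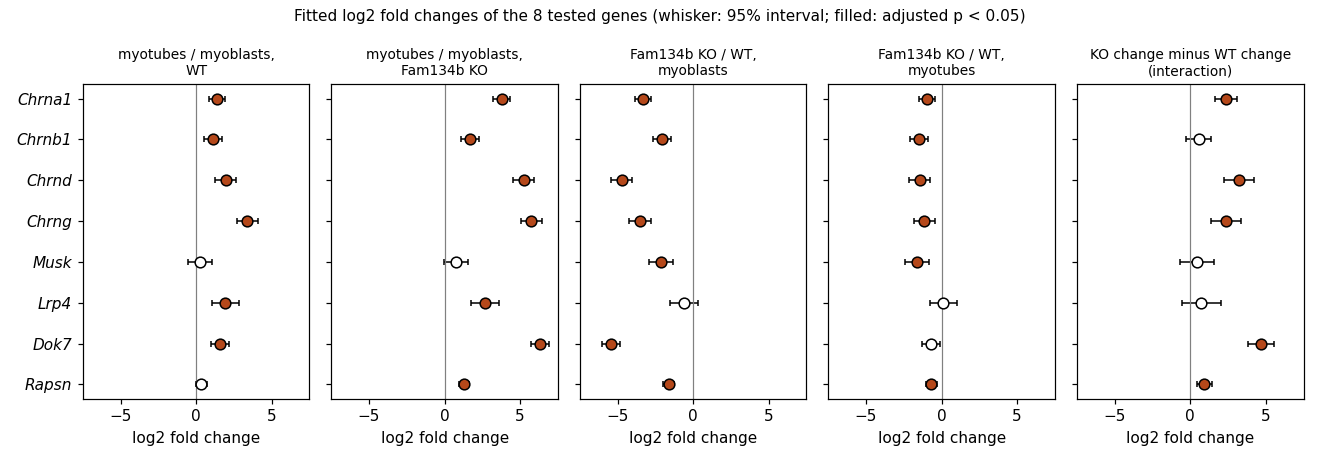
Fitted log2 fold change (horizontal axis, 0 marked) of the 8 tested genes in 5 comparisons, with 95% intervals as whiskers and filled points at an adjusted p under 0.05. The 7 filled points of the KO to WT myoblast comparison all lie left of 0, and the values of Chrnd, Chrng and Dok7 against KO myoblasts depend on the pseudocount of 1.

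The change on differentiation was compared between the lines with an interaction term. It was more positive in KO for 5 of 8 genes, where 1.97% of all tested genes were called in that direction and 3.45% in either. Chrna1 rose by 2.37 more on the log2 scale in KO (SE 0.36, adjusted p = 3.42e-04), Chrnd by 3.26 (SE 0.48, adjusted p = 2.06e-04), Chrng by 2.36 (SE 0.49, adjusted p = 0.00716) and Dok7 by 4.71 (SE 0.41, adjusted p = 2.15e-07). Rapsn rose by 0.94 more (SE 0.24, adjusted p = 0.0354). All 5 started from a lower level in KO myoblasts, and none was called higher in KO than in WT myotubes. The interaction of Chrnb1 was 0.56 (95% interval -0.27 to 1.40), that of Musk 0.47 (-0.66 to 1.60) and that of Lrp4 0.72 (-0.57 to 2.01), none of them called.

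The sizes for Chrnd, Chrng and Dok7 rest on counts near 0 in KO myoblasts. With a pseudocount of 5 the interaction was 1.43 for Chrnd (adjusted p = 0.0158) and 3.15 for Dok7 (adjusted p = 5.80e-07), but 0.65 for Chrng (adjusted p = 0.354). The counting intervals of the Chrng rise, 8.39 to 14.9 in WT and 51.1 to 11425 in KO by pooled reads, did not overlap. They leave out the spread between samples, so they do not test the interaction, and the KO interval rests on 1 read in KO myoblasts. The Rapsn interaction was lost without any 1 of 9 libraries, with adjusted p of 0.0521 to 0.0917. These were WT myoblasts replicates 1 and 4, WT myotubes replicates 1, 3 and 4, KO myoblasts replicates 1, 3 and 4, and KO myotubes replicate 1. Chrne and Ache went the other way in the limma fit without the filter, with a change less positive in KO. Their interactions were -1.99 (SE 0.49, adjusted p = 0.0328) and -2.27 (SE 0.40, adjusted p = 0.00233). Each KO group held at most 1 read of either gene, so a change within KO could not be measured.

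Factors known to act on these genes were taken as a list of 10 regulators of synaptic transcription. Myog, which encodes myogenin, had 92.1 to 149 normalized counts in WT myoblasts and 915 to 1347 in WT myotubes. In the KO line it had 0 reads in myoblasts and 487 to 940 normalized counts in myotubes. The Myog difference between the lines in myotubes, -0.51 on the log2 scale, was not called (SE 0.21, adjusted p = 0.0892). Myod1 had 282 ± 63.7 normalized counts in WT myoblasts and 9.62 ± 4.70 in KO myoblasts (SD, n = 4), then 763 ± 114 in WT myotubes and 292 ± 101 in KO myotubes. Myod1 differed from WT at both stages, by -4.81 in myoblasts (SE 0.26, adjusted p = 9.54e-12) and -1.43 in myotubes (SE 0.26, adjusted p = 4.97e-04). In the interaction 2 of the 7 tested regulators were called, Myog and Myod1, both more positive in KO. Of all tested genes 1.97% were called in that direction and 3.45% in either. Myf5, an earlier myogenic factor, went the other way in KO, falling on differentiation by 0.92 on the log2 scale (SE 0.27, adjusted p = 0.0119), from 114 ± 5.09 to 64.9 ± 33.3 normalized counts.

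The Ets factor Gabpa, known to act on synaptic promoters, had 47.5, 36.0, 35.3 and 41.6 normalized counts in WT myotubes and 26.1, 2.92, 35.1 and 15.99 in KO myotubes. Its level in KO myotubes was 1.35 lower than in WT myotubes on the log2 scale (SE 0.44, adjusted p = 0.0299), with the lowest values in the 2 shallowest libraries. Its partner Gabpb1 and the Ets factor Etv5 were called in none of the 4 pairwise comparisons, with log2 differences between -0.47 and 0.27. Hdac4, a deacetylase known to carry denervation signals to synaptic genes, was higher in KO myoblasts by 0.69 (SE 0.19, adjusted p = 0.0129) and rose in WT by 0.61 (SE 0.19, adjusted p = 0.0228). Myf6, Hdac9 and Dach2 fell below the filter, and Hdac9 had 11 reads in WT myoblasts and 0 in KO myoblasts.

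The markers of the myotube moved with the receptor genes. In KO myoblasts 8 of the 9 were lower than in WT myoblasts (8.50% of all tested genes). Of the 9, Myog and Myh8, a developmental myosin, had 0 reads in KO myoblasts, and 6, these included, had at most 3 reads in any library there. In KO myotubes 5 of 9 were lower than in WT myotubes (13.7% of all). In the interaction 8 of 9 were more positive in KO (1.97% of all). The part of the overall degree of differentiation in the differences of the receptor genes was not tested. Of 8 markers of the motor nerve terminal, Slc18a3 and Syt2 had 0 reads in all libraries and 6 of the 8 never passed 3 reads. The sum of the list, 527 to 650 in WT myoblasts and 168 to 201 in KO myotubes, was mostly Stmn2, a regulator of microtubules. Of 5 Schwann cell markers, Sox10, the defining factor, had 0 reads throughout and only Mbp, a myelin protein gene, was tested. That list summed to between 11.6 and 15.7 before and 8.10 and 13.8 after differentiation in WT, and to between 26.2 and 34.9 before and 13.1 and 39.96 after it in KO. Mbp had 10.6 ± 1.44 normalized counts in WT myoblasts and 23.6 ± 1.59 in KO myoblasts (SD, n = 4), a difference that was not called (adjusted p = 0.257), and it fell by 1.80 on the log2 scale on differentiation in KO (SE 0.61, adjusted p = 0.0272). S100b had 0 to 2.79 in WT myotubes and 6.78 to 19.98 in KO myotubes. Of 5 fibroblast markers 3 were tested, and only Dcn, which encodes decorin, was called between KO and WT myotubes. Dcn was higher in KO (log2 1.57, SE 0.50, adjusted p = 0.0265). The sum of the list was 70.2 to 126 in WT and 153 to 261 in KO myotubes. On differentiation Dcn rose by 4.61 in WT and 5.58 in KO on the log2 scale, while Twist2 of the same list fell by 1.28 and 1.34. The part of nerve, Schwann or fibroblast cells in the differences was not tested.

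Of 13 kinase, adaptor and ligand genes around MuSK, 11 were tested. In WT 2 rose (Agrn and Erbb2) and 3 fell, where 13.8% of all tested genes rose and 9.16% fell. In KO 3 rose and 1 fell, where 17.3% of all rose and 16.1% fell. Nrg1 alone was higher in KO myoblasts and Nrg1 and Abl1 were higher in KO myotubes, where 7.26% and 9.74% of all were higher, and none of the 11 was called lower at either stage. Agrn, which encodes agrin and is made by muscle as well as nerve, rose from 37.8 ± 14.2 to 87.2 ± 36.0 normalized counts in WT (log2 1.19, SE 0.31, adjusted p = 0.00791) and from 27.1 ± 4.86 to 110 ± 28.7 in KO (log2 1.96, SE 0.31, adjusted p = 4.84e-05). The difference between the lines was 0.37 in myotubes (SE 0.31, adjusted p = 0.424). Nrg1, a growth factor for synaptic gene expression through ErbB receptors, was higher in KO at both stages, by 1.14 in myoblasts (SE 0.24, adjusted p = 0.00172) and 0.81 in myotubes (SE 0.24, adjusted p = 0.0184). The ErbB receptor gene Erbb3 fell below the filter, with 22.4, 6.30, 13.9 and 14.9 normalized counts in WT myotubes and 2.90, 0, 0.8997 and 4.00 in KO myotubes. These were 63 and 6 reads, 8.03-fold lower in KO by pooled reads (interval 3.49 to 22.7), and the samples did not overlap. Erbb4 had 0 reads in every library. In the interaction 0 of 11 were called by limma, where 3.45% of all tested genes were called in either direction. An unadjusted p under 0.05 was found for 2 of the 11 (Abl1 and Pak1) and for 1876 of all 10767 tested genes.

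Among 16 genes of the synaptic lamina, scaffold and membrane 10 were tested. On differentiation 7 rose and 1 fell in WT (13.8% and 9.16% of all tested genes), and 6 rose and 1 fell in KO (17.3% and 16.1%). At each stage 2 were lower and 1 was higher in KO than in WT, where 8.50% and 7.26% of all were lower and higher in myoblasts and 13.7% and 9.74% in myotubes. Utrn, which encodes utrophin of the postsynaptic scaffold, rose by 1.09 in WT and 1.15 in KO (SE 0.25 each, adjusted p = 0.00402 and 0.00158), with values of 402 ± 104 and 398 ± 99.6 normalized counts in the myotubes of WT and KO. Sntb1, a syntrophin, was lower in KO by 3.30 in myoblasts (SE 0.42, adjusted p = 5.62e-06) and 1.86 in myotubes (SE 0.42, adjusted p = 0.00304) on the log2 scale. Cav3, the muscle caveolin, had 20 reads in WT and 0 in KO myoblasts, at least 7.38-fold lower, and was 1.85 lower in KO myotubes (SE 0.34, adjusted p = 5.15e-04). Lamb2, the synaptic laminin chain, was 0.73 higher in KO myotubes (SE 0.22, adjusted p = 0.0211). Of 5 glycosylation genes mutated in congenital myasthenia, Gfpt1 was higher in KO at both stages, by 1.00 and 0.88 (SE 0.16 each, adjusted p = 8.66e-05 and 4.06e-04). Alg2 rose in both lines, by 1.20 in WT and 1.45 in KO (SE 0.27 each, adjusted p = 0.00288 and 2.96e-04), and was 0.90 higher in KO myotubes (SE 0.27, adjusted p = 0.0186).

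**Figure D3:**
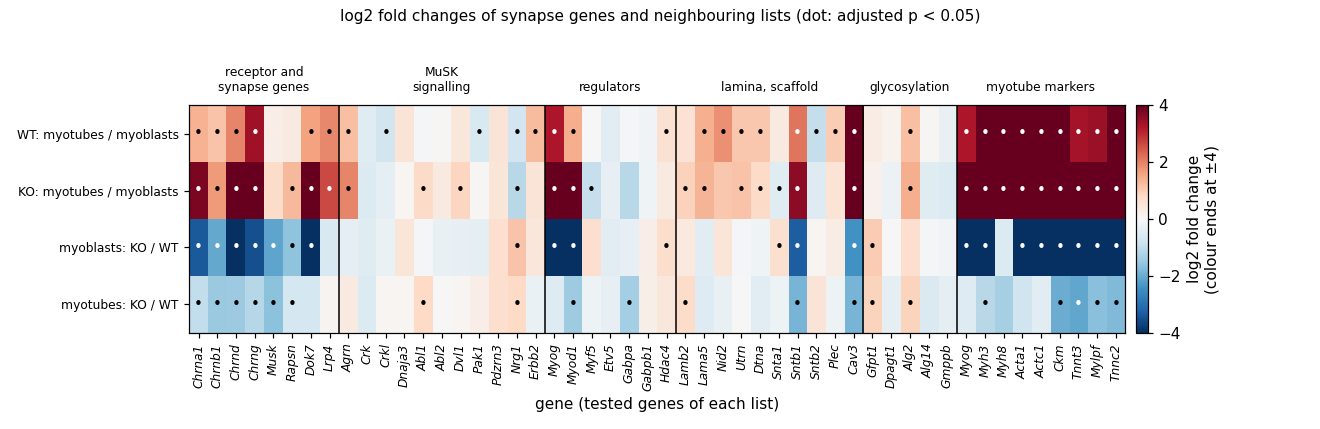
Log2 fold change (colour, ending at ±4) of the tested genes of 6 lists in the 4 pairwise comparisons, with a dot where the adjusted p was under 0.05. The receptor subunits and Dok7 share the blue of the myotube markers in KO myoblasts, while Utrn and most MuSK signalling genes stay pale there.

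As a description over the 16 samples, which share their libraries and 4 groups, Pearson's r of log2 values with Chrna1 was 0.971 for Dok7, 0.969 for Chrnd, 0.963 for Chrng, 0.923 for Chrnb1, 0.903 for Rapsn, 0.736 for Lrp4 and 0.720 for Musk. Outside the set the closest genes to Chrna1 were Cacng1, the gamma subunit of the muscle calcium channel (0.985), Sema6a (0.982) and C1qtnf3 (0.980). Cacng1 had means of 166 and 521 normalized counts in WT myoblasts and myotubes and 20.5 and 276 in the KO groups. Closest to Musk were Ivns1abp (0.949), Ndrg2 (0.943) and Fam178a (0.939). Ndrg2 had means of 222 and 320 normalized counts in WT myoblasts and myotubes and 27.2 and 72.1 in the KO groups, so it too was ordered by line before stage.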

How the data were processed

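RNA from 16 C2C12 samples was sequenced as single-end reads. Per the labels and methods, the authors trimmed reads with bbduk, aligned them with STAR 2.6.0a to mm10 and counted genes with HTSeq. The deposited values are log2 of a normalized count plus 1, set by the authors with a tool not given in the sources used here. Every value came back to a whole read (100% within 0.01), which gave the reads and depths printed. A model of 4 group means was fitted with limma 3.58.1 (R 4.3.3) to the log2 values, without a block, with a mean-variance trend, and differences of its group means gave the comparisons.

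Genes with a normalized count of 10 in 4 samples were tested, and calls used a Benjamini-Hochberg adjusted p under 0.05. The steps were tested on simulated data in which only genes of higher mean counts were changed, so changes at few reads were not covered. Read ratios used pooled reads of each group with exact intervals at 95%, and bounds used a floor of 3 reads over a group. The alternatives were other pseudocounts, filters and scalings, sample weights, limma voom, a replicate block, a stricter threshold, fits to the samples compared, and each library left out. The genes and lists were chosen with earlier results of these data known. The text names all 10 genes, Fam134b, the listed regulators, up to 2 called genes with the largest change per list and comparison, and the 3 most similar genes to Chrna1 and to Musk. Genes beside these were named after their values were seen. Motifs were counted in RefSeq promoters (GRCm38.p6), and positions are from GENCODE on GRCm38.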

Additional observations from a re-analysis of the deposited data

Results flagged for a closer look

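Among 31 groups of 4 samples looked at for the 10 genes, the gap of the farthest sample to its neighbour, as a share of the group's range, passed Dixon's 95% limit for 4 samples in 3, where chance passes about 1 group in 20. Chrnb1 in WT myoblasts replicate 4 stood low at 73.1 normalized counts (0.941), Musk in KO myoblasts replicate 4 stood high at 5.84 (0.867), and Lrp4 in WT myoblasts replicate 2 stood low at 5.79 (0.836). In KO myoblasts replicate 4 a single read is 0.834 normalized counts, so the Musk gap rests on few reads.

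The change on differentiation differed between the lines, by the interaction test, for Chrna1 (2.37 more in KO on the log2 scale), Chrnd (3.26), Chrng (2.36), Rapsn (0.94) and Dok7 (4.71).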

How the results depend on the processing

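Of 1142 fold changes of the genes under the alternatives 1113 kept direction and side of the threshold, 18 lost the call, 7 gained it and 4 turned, all 4 uncalled. Lrp4 in KO against WT myotubes became -0.15 without WT myotubes replicate 2, -0.03 without KO myotubes replicate 1 and -0.15 without KO myotubes replicate 3, and lay between -0.15 and 0.60 with each library left out. The Musk interaction became -0.16 without the 2 shallowest libraries, chosen after seeing the data. Counts of genes called stayed within 1.5 times in 143 of 144 cases. The interaction count fell from 5 to 3 with quantile normalization, where Chrng (1.48, adjusted p = 0.0787) and Rapsn (0.82, adjusted p = 0.0545) were lost. The cause was not tested. Sample weights added calls of the Rapsn rise in WT (adjusted p = 0.0233) and of lower Lrp4 in KO myoblasts (0.0259). At an adjusted p under 0.01, Chrng in KO myotubes and the Rapsn interaction were lost. The log2 difference of Chrng over Chrne in WT myotubes moved from 5.12 to 4.12 with a pseudocount of 5, and lay between 4.84 and 5.44 with each library left out.

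Over all tested genes, calls moved by over 1.5 times in these cases. An adjusted p under 0.01 gave 1269 for WT differentiation, 2216 for KO differentiation, 1041 and 1349 for KO against WT myoblasts and myotubes, and 141 for the interaction, from 2474, 3591, 1697, 2521 and 371. Sample weights gave 4683, 3773 and 1221 for WT differentiation, KO against WT myoblasts and the interaction. Fits to the samples compared gave 2656 and 1565 for KO against WT myoblasts and myotubes. Leaving out WT myotubes replicate 1 gave 1564 for WT differentiation, and leaving out any 1 of WT myoblasts replicate 2, WT myotubes replicate 3 and KO myoblasts replicates 1 and 4 gave 231 to 245 for the interaction. With quantile normalization the share of WT differentiation calls that were higher was 49.7% against 60.1%.

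The replicate numbers did not pair the samples. Deviations of same-numbered samples correlated from -0.22 to 0.37 (mean 0.033), and those of different-numbered samples from -0.35 to 0.37 (mean -0.011). In 16 of 48 cases a sample correlated best with its own number. With the replicate block the members called were 6, 7, 7, 6 and 5 in the order of the 5 comparisons, and 40 of 40 fold changes kept their call. Chrne and Ache, at 7 reads or fewer per library, and Musk in KO were limited by depth.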
